A study of Mus musculus with 20 samples.

Results

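Apolipoproteins are the protein parts of lipoprotein particles, and 10 genes for them are described here: Apoa1, Apoa2, Apoa4, Apoa5, Apob, Apoc1, Apoc2, Apoc3, Apoh and Apom. They were chosen by name, as the genes whose name in both count tables equals one of these symbols, and they are 10 of the 54532 genes that each table lists. Their levels are given in all tissue groups, also relative to the albumin gene Alb, and as the reads left in sorted cells.

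The study followed colorectal liver metastasis (CRLM) in C57BL/6 mice, grown from Mc38 cells, a colon adenocarcinoma line of the same strain, after injection into the spleen. Biopsies were centred on the tumor and held both metastasis and liver, in proportions that shifted as the metastases grew. Bulk RNA-Sequencing gave 14 tissue libraries and 6 libraries of cells that microbeads against F4/80 or CD11b had selected from Mt2 metastases. The labels give genotype WT for each sample.

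Normal liver (con, 2 libraries) came from mice treated with normal saline and taken at day 0. The other groups had received 1000000 MC38 cells. Tumor-free liver remote from the tumor (L-con) was taken at day 12 and has 1 library, so it is described without a test. Low-content tumor (Lt) and the medium-content group Mt3 date from day 9, the medium-content groups Mt2 and Mt1 from day 11, each with 2 libraries, and high-content tumor (Ht), with 3 libraries, from day 12. F4/80+ cells and CD11b+ cells, 3 libraries each, date from day 11. The Methods give mice of 6 to 8 weeks. They describe Ht_1 and Ht_3 as identical, and these libraries were summed to 1 sample, so that Ht has 2 samples. In the counts, the variance between Ht_1 and Ht_3 was 30.3 times that of counting error (chi-square per degree of freedom). It was 29.1 times between Ht_1 and Ht_2 and 13.2 times between Ht_2 and Ht_3.

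Sex is labelled male for the tissue samples and is not labelled for the sorted cells, while the Methods give female mice. Xist, which is transcribed from the inactive X chromosome, had 0 to 3 counts in the tissue libraries and 5547 to 21805 in the sorted ones. Ddx3y, a gene of the Y chromosome, had 348 to 1421 counts in the tissue libraries and 0 in the sorted ones. By these genes the tissue libraries were male and the sorted ones female, so the sorted cells came from other mice than the tissue libraries. Tissue and sorted cells therefore differ in sex, in count table and in kind of sample. These 3 cannot be told apart in any comparison between tissue and sorted cells.

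The libraries held 16460310 and 17041650 counts in con and 16715415 in the L-con library. The Lt libraries stood at 18178794 and 16398552, those of Mt3 at 17795222 and 17721946, of Mt2 at 17105175 and 17834019 and of Mt1 at 16032085 and 16587705. Ht_1, Ht_2 and Ht_3 held 16603151, 18246623 and 16880403. F4/80+ cells held 17886335, 18286092 and 17785496, and CD11b+ cells 18049897, 20548370 and 18145408. A floor of 3 counts, the upper limit that a count of 0 allows, corresponded to 0.164 to 0.187 CPM (counts per 1000000, here of the library total) in tissue and 0.146 to 0.169 in sorted cells, and it covers counting error only.

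Hepatocytes secrete most plasma lipoproteins, and the apolipoproteins on a particle hold it together, activate or inhibit the enzymes that unload it and steer it to receptors. Apob is the structural protein of very low density lipoprotein (VLDL), a single copy per particle, whereas Apoa1 and Apoa2 form the shell of high density lipoprotein (HDL), on which Apom carries sphingosine 1-phosphate. Apoc2 activates lipoprotein lipase, Apoa5 promotes and Apoc3 and Apoc1 restrain the clearance of triglyceride-rich particles, Apoa4 is made by intestine and liver, and Apoh, beta-2-glycoprotein I, binds anionic phospholipids.

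Abundance in normal liver sets the scale for what follows. Levels between genes were compared as TPM (transcripts per 1000000), which divides counts by gene length. In con, Alb had 86254 ± 9957 TPM (SD, n = 2 for each value in con and Ht). Apoa2 followed with 21538 ± 2824 TPM and Apoa1 with 16807 ± 3419 TPM, so the main HDL proteins stood at the top of the 10. Apoc1 had 7141 ± 1009 TPM, Apoc3 3676 ± 473 TPM and Apoh 2603 ± 272 TPM. Apob, whose exons span 13934 bases, had 1103 ± 22.7 TPM, while Apoa5 had 939 ± 27.4 TPM and Apom 624 ± 101 TPM. Apoa4 had 43.0 ± 7.69 TPM and Apoc2 2.95 ± 0.246 TPM, the lowest counted value of the 10. No neighbours in this order overlapped between their con libraries.

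Among the 54532 genes, Apoa2 ranked 3 in both con libraries by TPM and Apoa1 ranked 4 and 8. Apoc2 ranked 9525 and 9903, but most of its exonic bases are shared with another gene on the same strand, so its reads may be undercounted and its true place is not known. Together the 10 genes took 2.65% and 2.61% of the counts of the con libraries, beside 8.89% and 7.72% for Alb alone.

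In Ht the order at the top was no longer that of con. By mean, Apoa1 was already above Apoa2 in Mt2 (12423 against 11165 TPM) and in Mt1 (12528 against 6916 TPM), with overlapping ranges. Apoa1 had 2094 ± 641 TPM and Apoa2 733 ± 108 TPM, without overlap, so that Apoa1 and not Apoa2 led the 10 genes there. Alb had 4195 ± 1346 TPM in Ht, Apoc1 336 ± 11.3 TPM, Apoc3 242 ± 40.9 TPM and Apoh 162 ± 44.8 TPM. Further down, neighbours overlapped: Apob with Apoa5, Apoa5 with Apom, and Apom with Apoa4, which had 29.4 ± 17.8 TPM. The share of the 10 genes in all counts was 2.35% for L-con and 2.75% and 2.21% for Lt. It was 2.24% and 2.09% for Mt3, 2.10% and 0.947% for Mt2 and 1.71% and 0.808% for Mt1, and ended at 0.141% and 0.208% for Ht.

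From here on, levels in tissue are TMM-normalized CPM, which compare 1 gene across samples. The HDL genes come first. Apoa1, the main HDL protein and an activator of lecithin cholesterol acyltransferase, had 14085 and 10431 CPM in con and 8495 in the L-con library. Values for Lt were 13326 and 7979, followed by Mt3 with 8383 and 7633, Mt2 with 7832 and 2984, Mt1 with 7445 and 2296 and Ht with 434 and 653. Both Ht samples lay below every other tissue library, and con and Lt overlapped. Apoa2, its partner on HDL, had 6220.3 and 7412 CPM in con and 5487 in the L-con library. Biopsies of Lt reached 7082 and 4047, Mt3 biopsies 4526 and 4717, Mt2 biopsies 3508 and 886, Mt1 biopsies 1598 and 679, and Ht samples 75.5 and 90.0. The 6 Mt libraries of Apoa2 were all below the con libraries and above both Ht samples. Apom ranged from 328 to 417 CPM in con, from 47.6 to 224 in the Mt libraries, and had 8.60 and 12.1 CPM in Ht.

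Apob, the scaffold of VLDL, had 8974 and 9141 CPM in con and 10418 in the L-con library. The Lt libraries stood at 6136 and 5291, those of Mt3 at 7838 and 4929, of Mt2 at 5624 and 1398, of Mt1 at 3559 and 1495, and the Ht samples at 188 and 331. L-con was its highest library, and the Lt libraries did not overlap with con. The same held for Apoa5, Apoh and Apom, and no member was called in the test of con with Lt given below. The regulators of lipolysis had the same low end. Apoa5 lay at 1433 and 1360.4 CPM in con and at 24.9 and 44.8 in Ht, Apoc3 at 2008 and 2385 in con and at 46.3 and 56.9 in Ht, and Apoc1 at 2835 and 3427 in con and at 52.3 and 53.1 in Ht. Apoc2, the activator of lipoprotein lipase, was counted 17 and 16 times in con and 23 in the L-con library. Values for Lt were 21 and 27, followed by Mt3 with 15 and 19, Mt2 with 17 and 4 and Mt1 with 6 and 14. It had 2 counts in each Ht sample, under the floor of 3.

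Apoh had 2640.4 and 2254 CPM in con and 2013 in the L-con library. Biopsies of Lt reached 2044 and 1392, Mt3 biopsies 1718 and 1569.6, Mt2 biopsies 1302 and 375, Mt1 biopsies 841 and 289, and Ht samples 44.5 and 64.0. Its con libraries were above each of the others, and its Ht samples below them. Apoa4, which intestine and liver share, differed from the rest: it had 40.5 and 51.6 CPM in con and 45.3 in the L-con library. The Lt libraries stood at 103 and 45.4, those of Mt3 at 50.5 and 39.0, of Mt2 at 42.9 and 20.3, of Mt1 at 62.9 and 15.5, and the Ht samples at 6.54 and 15.8. Its highest value was in Lt_1, 3 of 6 Mt libraries were above the lower con library, and the higher Ht sample stood just above the lowest Mt library.

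Lt, Mt2 and Mt1 were uneven. The library numbered 2 had lower CPM than its partner for 10 of 10 members in Mt2 and for 9 of 10 in Lt and in Mt1, where Apoc2 was the exception. Alb went the same way, with 98827 and 49769.9 CPM in Lt, 55078 and 11698 in Mt2 and 58365 and 13312 in Mt1, against 129515 and 108806 in con. Over all genes, the variance within the pairs of Mt2 and Mt1 was 249 and 140 times that of counting error (chi-square per degree of freedom). It was 57.4 times for the Lt pair and 51.3 times for the con pair.

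**Figure D1:**
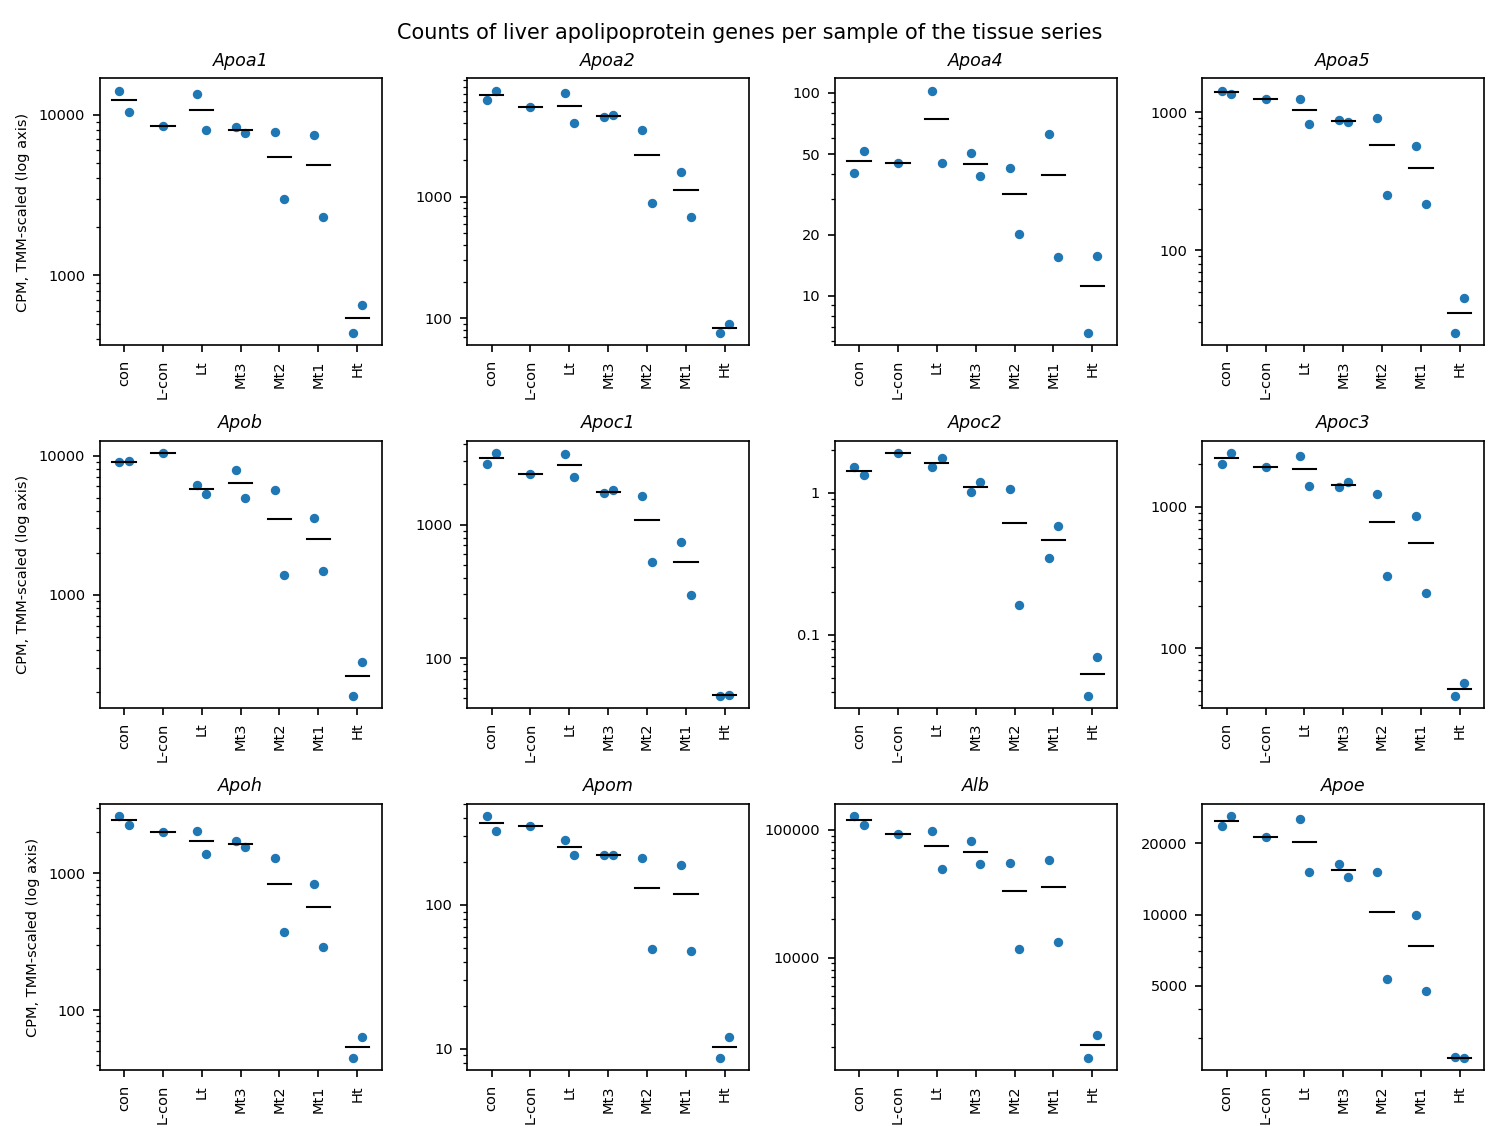
TMM-normalized CPM (log axis) of the 10 apolipoprotein genes, Alb and Apoe in 13 tissue samples, 1 panel a gene; blue points are samples and black lines group means. In each panel the Ht group has the lowest mean, for Apoa1 at 544 CPM against 12258 in con.

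The comparison of con with Lt asks what the earliest metastases of day 9 had changed. From con to Lt, 0 of 10 members were called lower, beside 0.256% of all genes tested. A gene was called at an adjusted p of at most 0.05 in edgeR's quasi-likelihood test with an absolute log2 change of at least 1. At an unadjusted p under 0.05 the count in edgeR was also 0, beside 4917 of all 17187 genes, and DESeq2 called 0, beside 2364 genes higher and 166 lower. The log2 changes of the members lay between -0.66 and 0.68, with a median of -0.27 beside 0.10 over all 17187 genes tested. Apoa4 had the highest and Apob the lowest. Alb had -0.68 (SE 1.11, adjusted p = 0.702).

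From con to Mt, the mean of Mt3, Mt2 and Mt1, 3 of 10 members were called lower, beside 10.3% of all genes. Apoc1 fell, with a log2 change of -1.65 (SE 0.43, adjusted p = 0.0138), as did Apoa2 with -1.59 (SE 0.50, adjusted p = 0.0282) and Apoh with -1.41 (SE 0.48, adjusted p = 0.0364). Their 6 Mt libraries lay below both con libraries, but so did those of every other member except Apoa4. How many of all genes were separated in this way was not counted. The other members had log2 changes of -1.37 (Apoc3, adjusted p = 0.0535), -1.30 (Apom, adjusted p = 0.0688), -1.26 (Apoa5, adjusted p = 0.0544), -1.24 (Apob, adjusted p = 0.0837), -1.07 (Apoc2, adjusted p = 0.139), -1.04 (Apoa1, adjusted p = 0.135) and -0.27 (Apoa4, adjusted p = 0.698). The median of the 10 was -1.28, beside 0.08 over all genes. Alb had -1.46 (SE 0.84, adjusted p = 0.177). The count rested on single libraries: it was 0 without con_1 or without con_2, 1 without Mt3_1, Mt3_2 or Mt1_2, 7 without Mt1_1 and 9 without Mt2_1. DESeq2 called 8 members lower, beside 2089 of 17187 genes. In edgeR the count was 1 with the compared groups alone and 0 with Mt as a single group. With the replicate number as a block it was 6.

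From Mt to Ht, the step into the biopsies richest in tumor, 9 of 10 members were called lower, beside 13.4% of all genes. Apoa2 fell, with a log2 change of -4.77 (SE 0.74, adjusted p = 0.00861), as did Apoc1 with -4.24 (SE 0.61, adjusted p = 0.00861) and Apoh with -4.08 (SE 0.67, adjusted p = 0.00864). Apoa5, Apoc3, Apob and Apom had -4.06, -4.05, -3.89 and -3.87 (adjusted p from 0.00865 to 0.0101), and Apoa1 -3.45 (SE 0.71, adjusted p = 0.0128). Apoc2 was called too, and its pooled counts, 75 in Mt and 4 in Ht, gave a level 13.7-fold lower in Ht (95% exact Clopper-Pearson interval from 5.12 to 51.4, which covers counting error only and not the spread between samples). Apoa4 was the exception, with -1.78 (SE 0.62, adjusted p = 0.0647). Its adjusted p came under 0.05 without Mt2_2 (0.0352) or without Mt1_2 (0.0236). The median of the 10 was -3.97, beside 0.00 over all genes, and Alb had -4.39 (SE 1.20, adjusted p = 0.0325). Without Ht_1 and Ht_3, or without Ht_2, 0 members and 0 of all genes were called in edgeR, while 9 and 10 members kept an unadjusted p under 0.05, beside 3760 of 17070 and 4074 of 17111 genes. DESeq2 called 10 members lower, beside 2503 of 17187 genes.

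Over the whole course, from con to Ht, 10 of 10 members were called lower, beside 24.1% of all genes. Apoa2 fell furthest, with a log2 change of -6.36 (SE 0.83, adjusted p = 2.9e-04), followed by Apoc1 with -5.89 (SE 0.70, adjusted p = 2.05e-04), the next largest of the 10. Apoh, Apoc3, Apoa5, Apom and Apob had -5.50, -5.41, -5.32, -5.17 and -5.12, and Apoa1 -4.50 (SE 0.80, adjusted p = 0.00112). Apoc2 was 29.1-fold lower by its pooled counts of 33 in con and 4 in Ht (95% exact Clopper-Pearson interval from 10.3 to 113), again with counting error only and with both Ht counts under the floor. Apoa4 had -2.05 (SE 0.70, adjusted p = 0.0284), the smallest of these changes. Its call was lost without con_1 (adjusted p = 0.0543), without con_2 (adjusted p = 0.098) and without Ht_1 and Ht_3 (adjusted p = 0.159), and with total-count scaling its log2 change was -0.87. The median of the 10 was -5.25, beside 0.09 over all genes, and Alb had -5.85 (SE 1.36, adjusted p = 0.00459). TMM factors were 0.686 and 0.710 in con and 1.60 and 1.58 in Ht. With total-count scaling the fall of each member is therefore smaller, as it was for Apoa4. The Methods describe the Ht samples as mostly tumor. In bulk samples, fewer hepatocytes and less RNA per hepatocyte cannot be told apart.

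Markers of other cells moved in the same biopsies. Of all 17187 genes tested, 4437 were called higher and 4139 lower from con to Ht. The 12 genes of a hepatocyte list were called lower in 12 of 12 cases from con to Ht, with a median of -5.19, and their summed level was 182464 and 158108 CPM in con and 142937 in the L-con library. Values for Lt were 146470 and 80549, followed by Mt3 with 118453 and 88133, Mt2 with 87235 and 20634, Mt1 with 85096 and 21206 and Ht with 3009.6 and 4485.5. Alb was the most abundant gene of that list in each tissue sample, and none of the 12 was at 0 there. Of 8 proliferation genes, 8 were called higher from con to Ht, with a median of 6.39 and sums of 16.8 and 10.3 CPM in con against 1089 and 1069.6 in Ht, where Top2a led. Of 13 macrophage genes, 11 were called higher and 1 lower, with sums of 818 and 532 CPM in con and 3032 and 3113 in Ht, where Lyz2 led. The part of these shifts in the values of the 10 members was not tested.

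The remaining lists were more mixed from con to Ht, to be read beside the same counts over all genes. Of 6 Kupffer cell genes, 3 were called lower (median -1.70), of 8 endothelial genes 5 lower (median -2.10), and of 8 stellate cell and fibroblast genes 3 higher and 3 lower (median 0.28). Of 7 neutrophil genes tested, 3 were called higher (median 2.14), and of 6 cholangiocyte genes tested 1 higher (median 0.22). Since Apoa4 is also an intestinal gene, an enterocyte list was read beside it: 4 of its 8 genes were tested, 1 was called higher and 2 lower. Cdx2, a defining factor of intestinal epithelium, had 0 counts in both con libraries and both Ht samples, and the list summed to 50.8 and 80.2 CPM in con, led by Fabp2, and to 5.97 and 6.02 CPM in Ht, led by Cdh17. What these lists contribute to Apoa4 was not tested.

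To ask whether the members moved with Alb or apart from it, counts were also taken per 100 counts of Alb in the same library. Apoa4 had 0.0312 and 0.0474 per 100 Alb counts in con and 0.0484 in the L-con library. Biopsies of Lt reached 0.104 and 0.0912, Mt3 biopsies 0.0618 and 0.0726, Mt2 biopsies 0.0779 and 0.174, Mt1 biopsies 0.108 and 0.116, and Ht samples 0.402 and 0.633. The Ht samples were above all others and the con libraries were the lowest of the 13. Taken singly, Ht_1, Ht_2 and Ht_3 had 0.553, 0.633 and 0.294 per 100 Alb counts, each above the highest Mt library.

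Apoa1 had 10.9 and 9.59 per 100 Alb counts in con and 9.07 in the L-con library. The Lt libraries stood at 13.5 and 16.03, those of Mt3 at 10.3 and 14.2, of Mt2 at 14.2 and 25.5, of Mt1 at 12.8 and 17.2, and the Ht samples at 26.7 and 26.1. Both Ht samples were above con without overlap, with Mt2_2 close to them. Apob had 6.93 and 8.40 per 100 Alb counts in con, 11.1 in L-con and 11.6 and 13.3 in Ht, and Apoa2 had 4.80 and 6.81 in con and 4.64 and 3.60 in Ht. Between the lowest and the highest of the 13 samples, the ratio to Alb spanned 20.3-fold for Apoa4, 7.36-fold for Apoc2, which rests on few counts, and from 1.92-fold (Apoc3) to 3.55-fold (Apoc1) for the other 8.

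**Figure D2:**
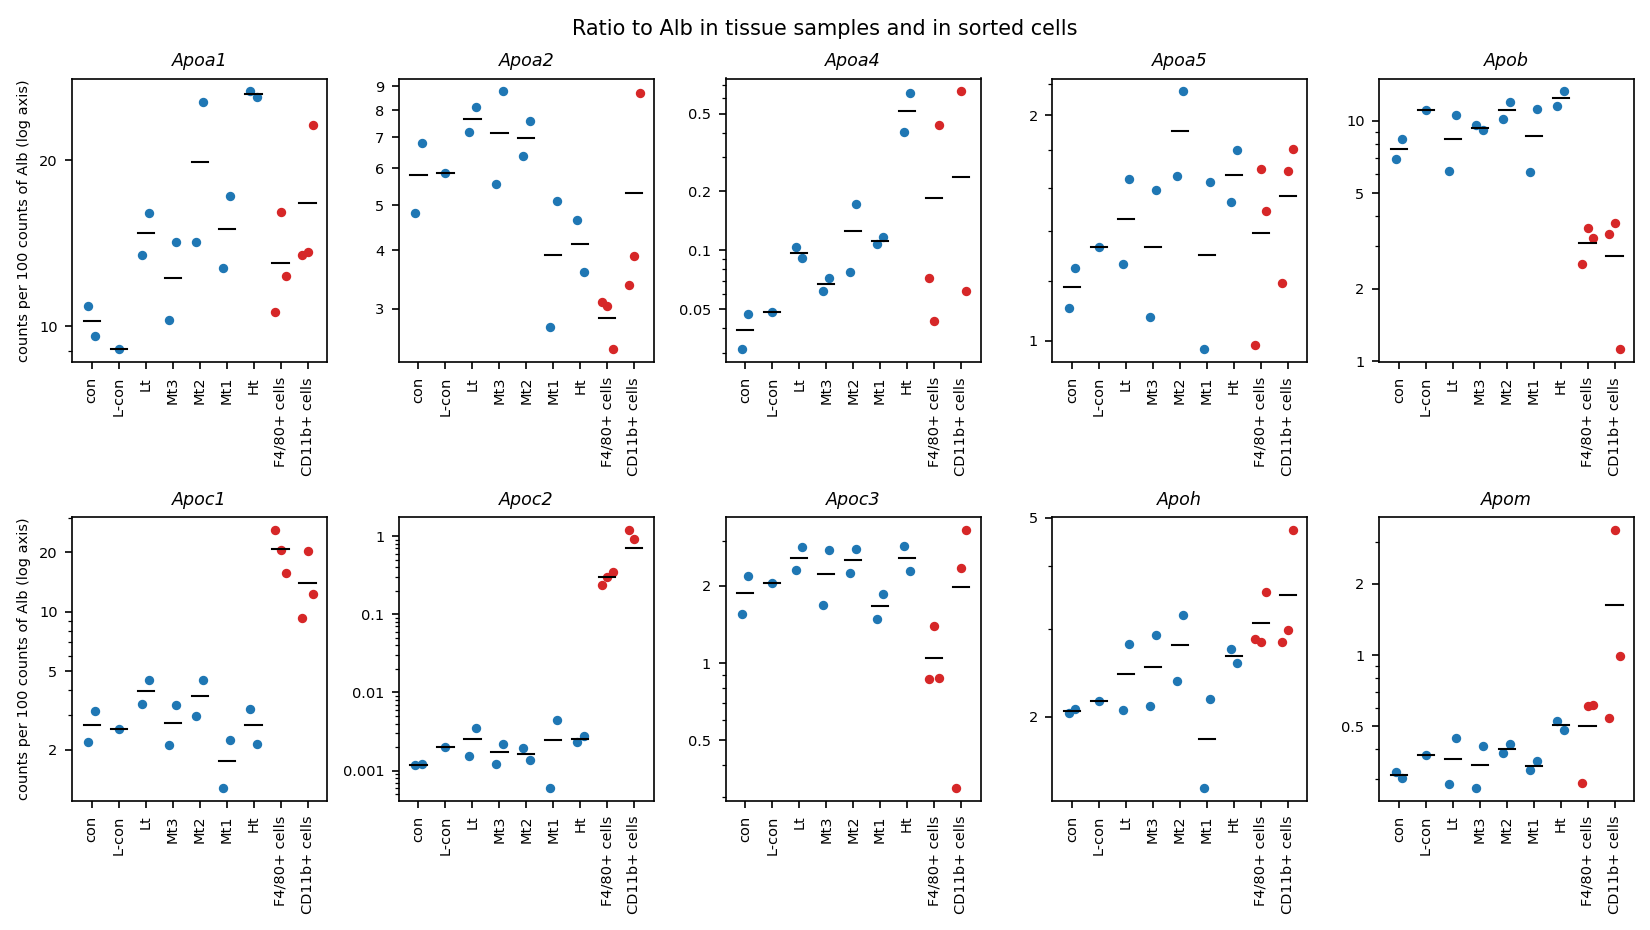
Counts of each apolipoprotein gene per 100 counts of Alb in the same sample (log axis), 1 panel a gene, for tissue samples (blue) and sorted cells (red), with black lines at group means; the values of 0, Apoa4 in CD11b+ cells_1 and Apoc2 in CD11b+ cells_3, are not drawn. Apoa4 rises from a mean of 0.0393 in con to 0.517 in Ht.

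For a test relative to Alb, the Alb count took the place of the library size. From con to Lt, the median log2 change of all genes was 0.93 on this scale. There 0 of 10 members were called higher or lower in edgeR, beside 4.48% and 0.00582% of all genes, and 0 had an unadjusted p under 0.05, beside 2849 of 17186 genes. The member median was 0.43, and the highest values were 1.31 for Apoa4 and 1.06 for Apoc2. From con to Mt, with a median of 2.04 over all genes on this scale, 0 of 10 were called in either direction in edgeR, beside 37% higher and 0.0873% lower, and again 0 had an unadjusted p under 0.05, beside 9396 of 17186 genes. The member median was 0.27, and Apoa4 had 1.32 (adjusted p = 0.154). DESeq2 was not run with Alb as the scale.

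From Mt to Ht relative to Alb, 1 of 10 members was called higher, beside 90.8% of all genes, and 0 lower, beside 0.151%. The median over all genes was 3.93, and that of the members 0.32. Apoa4 rose by 2.40 relative to Alb (SE 0.67, adjusted p = 0.00125), which is below the median over all genes, while the other 9 lay between -0.49 and 0.78. From con to Ht the outcome had the same form: 1 of 10 called higher, beside 91%, and 0 lower, beside 0.186%, with a median of 5.99 over all genes and of 0.60 over the members. Apoa4 rose by 3.72 (SE 1.00, adjusted p = 8.79e-04), and the call was kept without each single replicate. Apoa1 had 1.37 (SE 0.82, adjusted p = 0.112), Apoc2 1.08 (SE 1.47, adjusted p = 0.482), and the other 7 members lay between -0.49 and 0.70. With the compared groups alone, 2 members were called relative to Alb, since Apoa1 joined Apoa4. With a reference of 11 other hepatocyte genes in place of Alb, 2 members were called, Apoa4 higher and Apoa2 lower.

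Over the 13 tissue samples, the SD of log2 CPM of the members ran from 1.05 for Apoa4 to 2.28 for Apoa2. Taken per Alb, it shrank to 0.30 for Apom and Apoh, 0.33 for Apoc3 and Apoa5, 0.36 for Apob, 0.48 for Apoa2, 0.50 for Apoc1, 0.54 for Apoa1 and 0.76 for Apoc2, and it was 1.21 for Apoa4. Relative to the 11 other hepatocyte genes, Apoa5 and Apom had an SD of 0.14, Apoh 0.16, Apoc3 0.19, Apob 0.21, Apoa1 0.35, Apoc1 0.42, Apoa2 0.49, Apoc2 0.62 and Apoa4 1.03. The members thus differed in how closely they kept to other hepatocyte transcripts, with Apoa4 the loosest on each of these references.

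The genes whose tissue pattern was most like a member's were sought by Pearson correlation of log2(CPM + 1) over the 13 samples among 13763 genes. Members were left out of the ranking, so another member may lie closer than the genes named. The values describe likeness and carry no test, since the samples share the fall of liver transcripts in Ht. Closest to Apoa1 were Pla2g12b, Kng2 and Kng1 (r = 0.993 each), and closest to Apoa2 were Crp (r = 0.998), Haao and Ttr. Apoa5 was nearest to Hnf4a (r = 0.999), Apob to Hgfac (r = 0.998), Apoc1 to Fxyd1 (r = 0.996), Apoc3 to Aspdh and Rbp4, Apoh to Proc (r = 0.999) and Apom to Cbs and Cps1. Apoa4 had its highest values with Rdh9 (r = 0.975), Fbxo6 (r = 0.967) and Lect2 (r = 0.948). Apoc2 was too low in level to be compared.

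Other genes of lipoprotein metabolism were counted from lists. Beside them, of all 17187 genes, 2133 were called higher and 44 lower from con to Lt, 3477 and 1770 from con to Mt, 257 and 2306 from Mt to Ht, and 4437 and 4139 from con to Ht. Of 11 other apolipoprotein-named genes and relatives, 8 were called lower and 3 higher from con to Ht (median -2.17). Saa4 fell (log2 change -6.15), as did Apoc4, a neighbour of Apoc2 in the genome (-4.95). Apoe, which macrophages make as well as hepatocytes, had a log2 change of -3.33 (SE 0.75, adjusted p = 0.00385). Its level went from 23676 and 26233 CPM in con to 2486 and 2463 in Ht. Relative to Alb, Apoe rose by 2.57 (SE 0.82, adjusted p = 0.00435), which is below the median of 5.99 over all genes on that scale. Apod, which had 0 counts in both con libraries and 4141 and 2089 in Ht, was called higher, with a log2 change of at least 6.42 to Lt, 6.98 to Mt and 8.19 to Ht when con is set at the floor.

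Of 32 genes of lipoprotein assembly and handling, 25 were called lower and 2 higher from con to Ht (median -2.43). Mttp, which loads lipid onto Apob, had a log2 change of -4.51 (SE 0.65, adjusted p = 4.29e-04), and Abcg8, a sterol exporter, the largest fall of the list at -6.22. Msr1, a macrophage scavenger receptor, rose by 1.81. The same list counted 2 higher and 0 lower from con to Lt (median -0.49), 2 higher and 10 lower from con to Mt (median -0.83), and 0 higher and 20 lower from Mt to Ht (median -1.65). The 11 apolipoprotein-named genes and relatives counted 3 higher and 0 lower, then 3 and 2, then 0 and 6 in these steps. Their medians were 0.04, -0.95 and -1.94. The 3 called higher from con to Lt were Apod, Apobec1 and Apobr.

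Among 15 transcription factors known to act on apolipoprotein promoters, 1 was called higher and 0 lower from con to Lt (median -0.54), 1 higher and 9 lower from con to Mt (median -1.34), 1 higher and 11 lower from Mt to Ht (median -3.25), and 1 higher and 12 lower from con to Ht (median -4.88), to be read beside the counts over all genes given above. Hnf4a, which binds many apolipoprotein promoters, had a log2 change of -5.44 from con to Ht (SE 0.81, adjusted p = 4.82e-04), and Nr1h3, the liver X receptor alpha, -3.81. Relative to Alb, Hnf4a had 0.37 (adjusted p = 0.688) and Nr1h3 2.06 (adjusted p = 0.0372), both below the median of 5.99 over all genes. The factor called higher from con to Ht was Nr2f1. Whether these factors bear on the 10 members was not tested.

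Some members lie together in the genome (GRCm38). Apoa1 (ENSMUSG00000032083, chr9:46228580-46230466, plus strand), Apoc3 (ENSMUSG00000032081, chr9:46232933-46235636, minus strand), Apoa4 (ENSMUSG00000032080, chr9:46240696-46243459, plus strand) and Apoa5 (ENSMUSG00000032079, chr9:46268633-46271919, plus strand) occupy 43.34 kb of chromosome 9. From con to Ht their log2 changes were -4.50 for Apoa1, -5.41 for Apoc3, -2.05 for Apoa4 and -5.32 for Apoa5. Apoc2 (ENSMUSG00000002992, chr7:19671579-19677941, minus strand) and Apoc1 (ENSMUSG00000040564, chr7:19689481-19692660, minus strand) lie with Apoc4 and Apoe within 27.61 kb of chromosome 7. The other members stand apart: Apoa2 (ENSMUSG00000005681, chr1:171225054-171226379, plus strand), Apob (ENSMUSG00000020609, chr12:7977648-8016835, plus strand), Apoh (ENSMUSG00000000049, chr11:108343354-108414396, plus strand) and Apom (ENSMUSG00000024391, chr17:35128997-35132050, minus strand).

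Overlapping gene models limit some of these counts. Apoc2 shares 79.5% of its exonic bases with Gm44805, a read-through gene on the same strand that had 0 to 4 counts in the tissue libraries and 0 in the sorted ones. Apoa4 shares 69.8% of its exonic bases with Gm10680 and Gm47528 on the opposite strand, which had 0 and 0 to 13 counts in tissue. Apoa5 shares 20.8% with Gm47544, which had 0 counts. Reads in the bases that Apoc2 shares with Gm44805 may not have been counted for either gene, by strand or not. For Apoa4 and Apoa5 the same could hold if reads were counted without regard to strand, which is not stated.

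Promoter sequences, 300 bases that end 50 bases after the start of a gene, were taken from RefSeq (GRCm38.p6) and matched 8 of 10 members, all but Apoc1 and Apoc3. They were searched on both strands for the TATA box TATAAA, the HNF4 core CAAAGTCC, the HNF1 motif GTTAATNAT and the direct repeat AGGTCAAAG. TATAAA was found in 3 of 8 members, Apoa2, Apoa5 and Apob, or in 4 of their 10 windows, beside 13.6% of all 32851 promoters of this length. Another window of Apoa2 holds no match. The other motifs were found in 0 of 8 members and in 1.42%, 0.801% and 0.426% of all promoters. By the RefSeq starts, some of which differ from the starts of the gene models above, the match begins at -212 for Apoa2, at -31 and -56 for the windows of Apoa5, which have different starts, and at -60 for Apob. A window of Apoa5 and that of Apob are shown with TATAAA in capitals, beside that of Apoa1, which holds none: Apoa5 at chr9:46268358-46268657, Apob at chr12:7977427-7977726 and Apoa1 at chr9:46228380-46228679, all on the plus strand.
Apoa5: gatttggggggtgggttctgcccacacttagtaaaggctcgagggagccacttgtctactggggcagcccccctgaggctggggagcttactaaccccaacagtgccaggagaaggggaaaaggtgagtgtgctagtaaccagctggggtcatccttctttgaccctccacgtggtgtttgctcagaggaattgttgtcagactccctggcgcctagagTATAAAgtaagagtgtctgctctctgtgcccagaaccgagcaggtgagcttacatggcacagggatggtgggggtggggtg
Apob: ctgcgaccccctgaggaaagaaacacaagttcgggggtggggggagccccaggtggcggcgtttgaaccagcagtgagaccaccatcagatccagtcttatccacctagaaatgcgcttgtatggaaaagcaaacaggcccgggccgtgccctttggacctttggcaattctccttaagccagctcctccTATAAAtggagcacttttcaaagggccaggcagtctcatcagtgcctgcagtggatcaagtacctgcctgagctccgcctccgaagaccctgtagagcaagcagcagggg
Apoa1: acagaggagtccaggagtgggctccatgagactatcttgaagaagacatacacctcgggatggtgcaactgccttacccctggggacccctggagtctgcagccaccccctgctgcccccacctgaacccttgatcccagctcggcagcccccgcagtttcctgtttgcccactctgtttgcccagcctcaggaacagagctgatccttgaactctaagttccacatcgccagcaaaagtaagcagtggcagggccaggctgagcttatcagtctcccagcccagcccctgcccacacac
These matches are descriptions of letters in a window and say nothing of binding.

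Reads of the 10 genes were also present in the sorted cells, and their source was not tested. Here levels are CPM within the sorted table. By TPM, Apoc1 had the highest mean of the members in F4/80+ cells, while in CD11b+ cells its range overlapped with that of Apoa1. It was counted 1077, 475 and 358 times in F4/80+ cells and 86, 156 and 198 times in CD11b+ cells, or 59.2, 25.2 and 19.1 CPM and 4.56, 7.38 and 13.04 CPM. The groups did not overlap. Apoa1 had 24.2, 19.7 and 15.1 CPM in F4/80+ cells and 6.57, 4.97 and 24.6 CPM in CD11b+ cells, where CD11b+ cells_3 stood apart. Apob, with 5.77, 4.35 and 3.96 CPM in F4/80+ cells, stayed above the 1.64, 1.37 and 1.19 CPM of CD11b+ cells.

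Apoa2 had 2.99 to 7.09 CPM in F4/80+ cells and 1.42 to 9.22 in CD11b+ cells, and Apoh 3.45 to 6.54 and 1.09 to 5.01. Apoa5, Apoc3 and Apom stayed under 4 CPM in each sorted library. Apoc2 was counted 10, 7 and 8 times in F4/80+ cells and 11, 7 and 0 times in CD11b+ cells, and Apoa4 3, 1 and 10 times and 0, 5 and 1 times, close to the floor. All 10 genes together held 0.0110%, 0.00632% and 0.00527% of the counts of F4/80+ cells and 0.00182%, 0.00201% and 0.00498% of those of CD11b+ cells.

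CD11b+ cells_3 had more counts of Alb and of some members than its partners. It had 140 counts of Apoa2 against 31 and 30, 53 of Apoc3 against 3 and 18, 373 of Apoa1 against 124 and 105, and 1610 of Alb against 921 and 771, but 18 of Apob against 31 and 29. Over all genes, its variance against CD11b+ cells_1 and CD11b+ cells_2 was 152 and 199 times that of counting error (chi-square per degree of freedom). Between those 2 libraries it was 19.1 times. The neutrophil list summed to 4165 CPM in CD11b+ cells_3, led by S100a9, against 1424 and 1407 in its partners.

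The sorted cells were set against Mt2 tissue, to see which members fell with other hepatocyte genes. The Methods say that the cells were selected from Mt2 metastases, but by Xist and Ddx3y they came from other mice than the Mt2 libraries. In this joint fit of 19 samples CPM are scaled together, and Apoc1 had 1707 and 555 CPM in Mt2, 54.4, 23.3 and 17.7 in F4/80+ cells and 4.08, 6.60 and 11.5 in CD11b+ cells. Apob had 5894 and 1465 CPM in Mt2, 5.31, 4.03 and 3.65 in F4/80+ cells and 1.47, 1.23 and 1.04 in CD11b+ cells. Each sorted library was below both Mt2 libraries for Apoc1 and Apob.

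**Figure D3:**
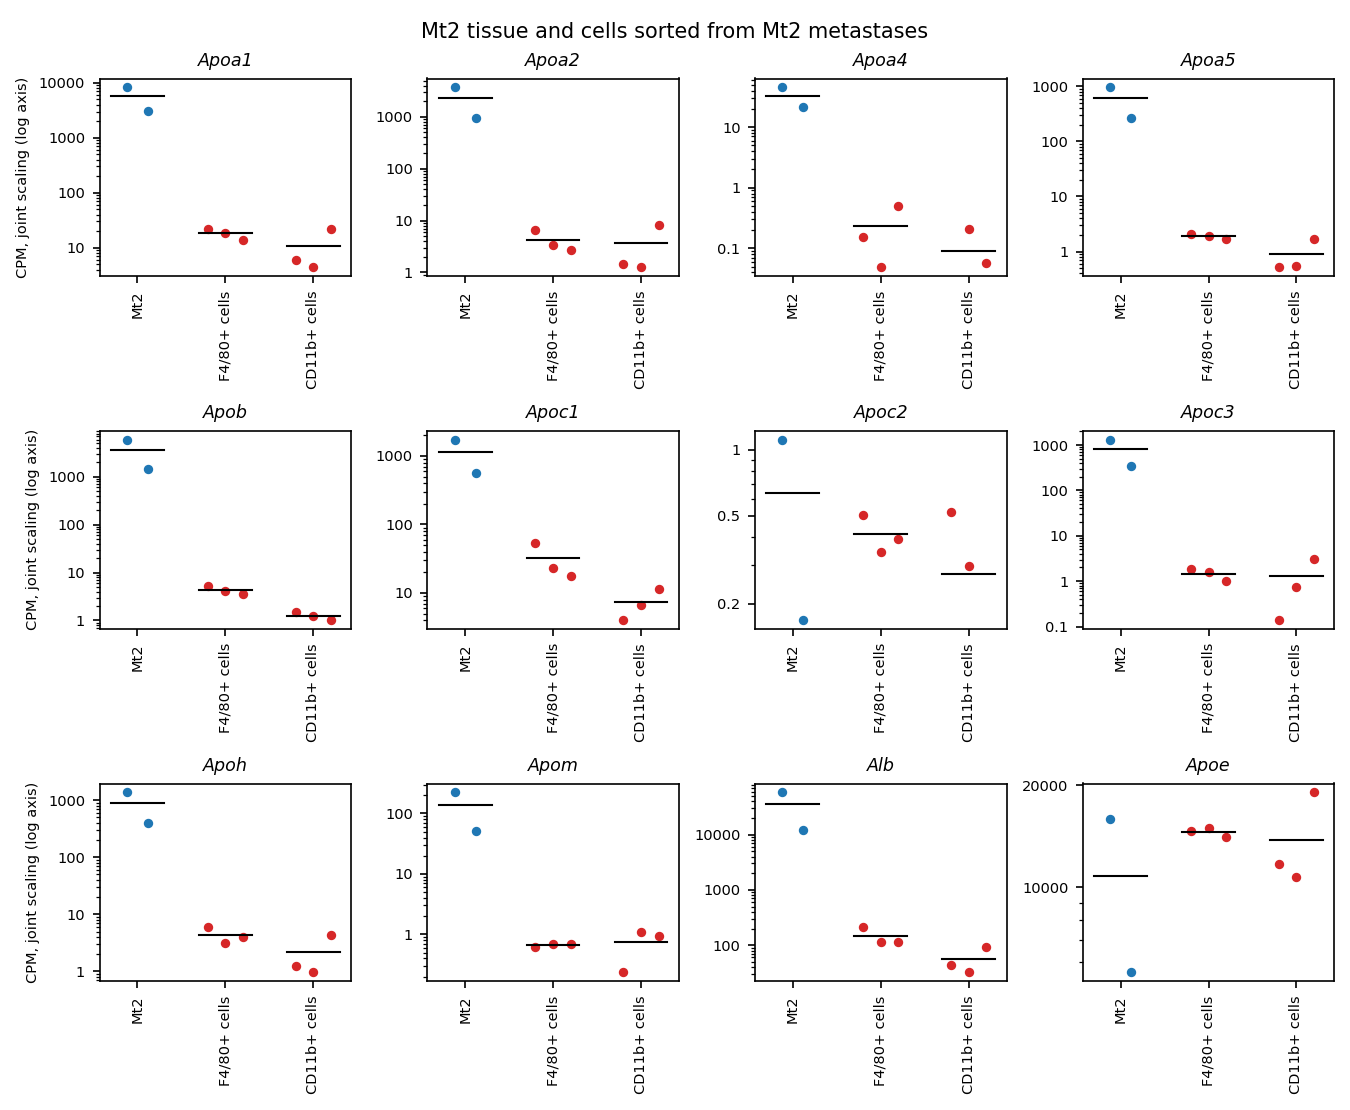
CPM from the joint scaling of tissue and sorted cells (log axis) for the 10 apolipoprotein genes, Alb and Apoe in Mt2 tissue (blue) and in F4/80+ and CD11b+ cells (red), with black lines at group means; the values of 0, Apoa4 in CD11b+ cells_1 and Apoc2 in CD11b+ cells_3, are not drawn. Apoc1 has 555 to 1707 CPM in Mt2 and 17.7 to 54.4 in F4/80+ cells.

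From Mt2 tissue to F4/80+ cells, 9 of 10 members were called lower, beside 25.2% of all genes, with a median of -7.98 beside -0.12 over all 18407 genes. Apob fell furthest, with a log2 change of -9.73 (SE 0.67, adjusted p = 1.21e-07), and Apoc3 had -9.12, Apoa2 -9.08, Apoa5 -8.33, Apoa1 -8.29, Apom -7.68, Apoh -7.64 and Apoa4 -7.12. Apoc1 fell least of the called members, with -5.15 (SE 0.62, adjusted p = 7.73e-06), and Apoc2 was not called. Alb had -7.91 (SE 0.92), and the 12 hepatocyte genes were called lower in 12 of 12 cases with a median of -7.94. Their summed level was 346, 185 and 190.2 CPM in F4/80+ cells, led by Alb, with none of the 12 at 0. All 13 macrophage genes were called higher, beside 3162 of 18407 genes, with sums of 26154, 25765 and 24324 CPM in F4/80+ cells, led by Lyz2. Apoe, with 15951, 16081 and 15198 CPM in F4/80+ cells, was not called (adjusted p = 0.474).

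From Mt2 tissue to CD11b+ cells, 9 of 10 members were again called lower, beside 26.3% of all genes, with a median of -8.86 beside -0.08. Apob fell furthest again, with a log2 change of -11.51 (SE 0.72, adjusted p = 4.12e-08), while Apoa1, Apoa2, Apoa4, Apoa5, Apoc3, Apoh and Apom had -9.41 to -7.49 and Apoc1 -7.26 (SE 0.68, adjusted p = 6.82e-07). Apoc2 had -1.09 (SE 0.83, adjusted p = 0.279), and its log2 change was 0.72 without Mt2_1. Alb had -9.27 (SE 0.97). The 12 hepatocyte genes were called lower in 12 of 12 cases with a median of -9.23, and summed to 72.1, 58.9 and 174 CPM, with Cps1 at 0 in CD11b+ cells_1 and CD11b+ cells_2. Macrophage genes were called higher in 13 of 13 cases, beside 3235 of 18407 genes, with sums of 23349, 22989 and 37721 CPM.

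Per 100 counts of Alb, Apoc1 had 2.96 and 4.53 in Mt2 tissue, 25.9, 20.7 and 15.7 in F4/80+ cells and 9.34, 20.2 and 12.3 in CD11b+ cells. Each sorted library was above every tissue sample, the highest of which had 4.53. Apob moved the other way, with 10.2 and 12.0 per 100 Alb counts in Mt2, 2.53, 3.57 and 3.24 in F4/80+ cells and 3.37, 3.76 and 1.12 in CD11b+ cells, all below the lowest tissue sample at 6.10. Apoh had 2.36 and 3.20 in Mt2, 2.86, 2.83 and 3.55 in F4/80+ cells and 2.82, 2.98 and 4.72 in CD11b+ cells. For Apoh, F4/80+ cells_3 and CD11b+ cells_3 exceeded the highest tissue sample, Mt2_2. Apom reached 3.37 per 100 Alb counts in CD11b+ cells_2, from 26 counts, against 0.543 and 0.994 in its partners.

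Relative to Alb, 2 of 10 members were called higher from Mt2 tissue to F4/80+ cells, beside 90.5% of all genes, and 1 lower, beside 0.744%. The median over all genes was 7.14 on this scale, and the member median -0.16. Apoc2 rose by 7.45 (SE 1.55, adjusted p = 8.77e-06), close to the median over all genes, and Apoc1 by 2.47 (SE 0.85, adjusted p = 0.00505). Apob fell relative to Alb, with -1.83 (SE 0.76, adjusted p = 0.0206). Its call was lost without F4/80+ cells_1 (adjusted p = 0.0613), without F4/80+ cells_3 (adjusted p = 0.0525) and with Ttr in place of Alb, where it had -0.56. In a fit of the compared groups alone, Apoc1 was the 1 member called (adjusted p = 0.0297), Apob was not (adjusted p = 0.0751) and Apoc2 was not tested. Apoa2 had -1.28 (adjusted p = 0.107) and Apoc3 -1.27 (adjusted p = 0.14), and the other 5 members lay between -0.61 and 0.50.

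In CD11b+ cells, 3 of 10 members were called higher relative to Alb, beside 91.5% of all genes, and 1 lower, beside 0.473%, with a median of 8.67 over all genes and of 0.05 over the members. Apoc2 rose by 8.63 (SE 1.63, adjusted p = 1.22e-06), Apom by 2.00 (SE 0.97, adjusted p = 0.0466) and Apoc1 by 1.90 (SE 0.82, adjusted p = 0.0259). Apob fell, with -2.03 (SE 0.78, adjusted p = 0.0119), and had -0.54 with Ttr as the scale, which was not called. In a fit of the compared groups alone, Apoc2 was the 1 member called, and Apob, Apoc1 and Apom were not (adjusted p = 0.0975, 0.14 and 0.146). Single libraries decided several calls. Without CD11b+ cells_2, Apom had 0.95 and Apoc1 1.53 and neither was called, and without Mt2_1 neither was called either (1.93 and 1.62). Without Mt2_2 the call of Apom was lost (adjusted p = 0.098), and without CD11b+ cells_3 that of Apob (adjusted p = 0.0534). Whether the reads of Apoc1 and Apoc2 come from the sorted cells themselves was not tested.

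Between the sorted populations, 8 of 10 members passed the filter on low counts, Apoa4 and Apoc2 not. Of these, 0 were called higher in F4/80+ cells, beside 0.00701% of all genes, and 0 lower, beside 0.0701%, in edgeR. Apob and Apoc1 had an unadjusted p under 0.05, which makes 2, beside 1503 of 14263 genes, and DESeq2 called these 2 higher, beside 133 genes. Apoc1 was higher in F4/80+ cells by 2.06 (SE 0.51, adjusted p = 0.221) and Apob by 1.74 (SE 0.29, adjusted p = 0.0714), each with 3 of 3 libraries above those of CD11b+ cells, while Alb had 1.31 (SE 0.43, adjusted p = 0.379). The median of the 8 was 0.84, beside -0.00 over 14263 genes. Without CD11b+ cells_3, 1 member was called. Kupffer cell genes summed to 2596, 1027 and 653 CPM in F4/80+ cells, led by Clec4f, and to 106, 139 and 63.6 CPM in CD11b+ cells, led by Cd5l, and their part in the difference of Apoc1 was not tested.

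These results have limits. Groups held 1 to 3 samples, biopsies mixed tumor and liver, con, Mt and Ht differ in day as well as in tumor content, and Ht rested on 2 samples. Changes of the 10 members in bulk tissue are levels per library, not per hepatocyte. Ratios to Alb depend on Alb, which was itself called lower from con to Ht, at -5.85 on the log2 scale. Apoc2 rested on few counts in each library. Sorted cells and tissue came from different count tables and, by Xist and Ddx3y, from mice of different sex. Carry-over of liver RNA into the sorted cells was not tested. Protein, lipoproteins and blood lipids were not analysed here.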

How the data were processed

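Raw counts per gene, which the authors deposited in a table for 14 tissue libraries and a table for 6 libraries of sorted cells, were the input. By the submitters' processing notes, reads were called with CASAVA, aligned to GRCm38/mm10 with HISAT2 2.0.5 and counted with featureCounts 1.5.0-p3. Both tables list 54532 genes, and library totals and floors are given with the results. CPM, TPM and counts per 100 counts of Alb were computed from these counts.

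Tests used edgeR 4.0.16 in R 4.3.3 (TMM scaling, filterByExpr with a minimum count of 10, quasi-likelihood test, Benjamini-Hochberg adjustment over all genes tested). Tissue was fitted with 13 samples in 7 groups, tissue and sorted cells jointly with 19 samples in 9 groups, and the sorted cells alone with 6 libraries. Ht_1 and Ht_3 were summed. Genes were called where the adjusted p did not exceed 0.05 and the log2 change was 1 or more in size. Mt is the mean of the Mt3, Mt2 and Mt1 coefficients. For ratios to Alb, the Alb count replaced the scaled library size in the same test. Figures were drawn with matplotlib 3.10.9 in Python 3.11.15.

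The genes named are the 10 members, and from the lists the genes with the largest or smallest change, Alb, Ttr, Apoe, Hnf4a, Mttp and Nr1h3. The lists were other apolipoprotein-named genes and relatives, lipoprotein assembly and handling, transcription factors, and hepatocyte reference genes. Marker lists covered macrophages, Kupffer cells, neutrophils, endothelium, cholangiocytes, enterocytes, stellate cells and fibroblasts, and proliferation. Similar genes were the 3 with the highest correlations for each member, with the members themselves left out. Members and lists were chosen with earlier results of these data known. Xist and Ddx3y, the most abundant gene or a gene at 0 of a marker list, Apod, Apoc4, and neighbouring genes that share exonic bases with members, were added after the values were seen.

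Alternatives were DESeq2 1.42.0, total-count scaling, no fold threshold, no filter or a stricter one, the compared groups alone, Mt pooled as 1 group, Ht_1 to Ht_3 kept apart, Ht_3 dropped, other references than Alb, a replicate block, and leaving out each replicate. A block with crossed replicate numbers was added after seeing the data. L-con, with 1 library, was not tested. The test procedure was tested on simulated data.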

Additional observations from a re-analysis of the deposited data

How the results depend on the processing

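Of 172 alternatives to the 13 counts of members called, 148 stayed within 1.5 times the count reported and 24 moved. For single members with a log2 change of at least 1, 809 of 900 alternatives kept direction and side of the threshold, 55 lost the call, 34 gained it and 2 reversed. For changes under 1, 82 of 780 alternatives reversed, in 43 results, the largest of them at 0.73. Where no construction is named, the cause was not tested.

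Leaving out 1 replicate gave, for members called, 0 to 9 from con to Mt, 0 to 10 from Mt to Ht, 9 to 10 from con to Ht, and 0 to 0 from con to Lt. Relative to Alb it gave 0 to 0 from con to Lt and from con to Mt, 1 to 1 from Mt to Ht and from con to Ht, 2 to 3 for F4/80+ cells and 2 to 4 for CD11b+ cells. It gave 9 to 9 in both comparisons of Mt2 tissue with sorted cells and 0 to 1 between the sorted cells. Where a group was left with 1 sample, that sample was assumed to vary like the other groups.

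From con to Mt, 3 members were called, beside 8 with DESeq2, 8 with no filter on low counts, 1 with the compared groups alone (fewer samples) and 0 with Mt as a single group. Relative to Alb from con to Ht, 1 was called, beside 2 with the compared groups alone (Apoa1 joined) and 2 with the hepatocyte reference list as the scale (1 higher, and Apoa2 lower). With the compared groups alone, 1 was called relative to Alb in F4/80+ cells in place of 3, and 1 in CD11b+ cells in place of 4. Between the sorted cells, 2 were called with DESeq2 and 2 with no filter, in place of 0.

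With the replicate number as a block, 6 members were called from con to Mt in place of 3, and the block moved no other count. For replicates that share a number, the deviations from the group mean were correlated over genes between pairs of groups. These correlations of deviations, not of levels, lay between -0.38 and 0.76 in tissue, with 6 of 15 pairs above 0.1. In the sorted cells they lay between -0.136 and 0.0117. The block with crossed numbers, chosen after seeing the data, gave 0 calls from con to Lt on both scales, 10 from con to Ht, and 2 relative to Alb from con to Ht.

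Reversed were Apoc3 relative to Alb from Mt2 tissue to F4/80+ cells, at 0.00833 with Ttr as the scale, and Apoc2 from Mt2 tissue to CD11b+ cells, at 0.72 without Mt2_1, with a range of -1.91 to 0.72 when 1 replicate was left out.

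With the hepatocyte reference list in place of Alb, the log2 ratio of Ht to con became 0.66 for Apoa1, -1.19 for Apoa2, 3.04 for Apoa4, -0.20 for Apoa5, 0.00 for Apob, -0.70 for Apoc1, 0.40 for Apoc2, -0.24 for Apoc3, -0.34 for Apoh and -0.01 for Apom. This list was not run as the scale for the sorted cells, where Cps1 had 0 counts. The stricter filter left 9 members to test in tissue and 6 in the joint fit. Few counts limit Apoc2 in tissue, and Apoa4 and Apoc2 in sorted cells; the cause was not tested.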
